A study of Mus musculus with 15 samples.

Results

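The livers of mice that ate an atherogenic diet with β-cryptoxanthin were compared with the livers of mice that ate normal chow. Both groups were male C57BL/6J mice, 8 weeks old at the start and fed for 12 weeks, with 5 mice in each group. The normal chow group (NC) ate CRF-1 only. The supplemented group (CL+CX) ate the CL diet, a mix of 38.23% CRF-1, cholesterol at 1.25%, sodium cholate at 0.5% and cocoa butter at 60%, with the citrus carotenoid β-cryptoxanthin added. The treatment text of the labels and the study's methods gave its dose as 0.003% of the diet, and the sample titles gave 0.005%. Another group of 5 mice (CL) ate the CL diet alone and served to divide the differences by whether the plain CL diet also showed them. No group ate chow with the carotenoid, so the CL+CX and NC groups differed in cocoa butter, cholesterol, cholate and carotenoid at once. The hour of day at which the livers were taken is not given in the sources used here. The members of the comparison were the 10 arrays of these 2 groups, of 15 in the series, chosen by their titles. All 45037 probe sets other than array controls were tested between these groups in a fit of all 15 arrays. Of them 34945 carried 1 gene symbol and stood for 18193 named genes, and the rest had no symbol or several. The RNA of each mouse was put on 1 Affymetrix mouse GeneChip array, and since the labels do not name cages or litters, p-values measure the spread between these mice.

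In a liver on a diet rich in cholesterol and cholate, cholesterol that enters hepatocytes lowers the processing of SREBP2, the factor that drives sterol synthesis, and its oxidised forms activate LXR, the nuclear receptor that drives sterol export. Bile acids act on FXR and turn down their own synthesis. Recruited monocytes and lipid-laden macrophages are the usual inflammatory cells of such a liver. β-Cryptoxanthin is a xanthophyll that can be cleaved to vitamin A, whose acid form acts through the RAR and RXR receptors. The liver also carries a circadian clock, in which ARNTL (BMAL1) and CLOCK activate the Per, Cry and Nr1d genes that later repress them.

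Signals were scaled so that every array had the same 75th percentile, and all differences are in log2 signal, CL+CX minus NC, with the standard error of the fit. An adjusted p is that of the limma model after Benjamini-Hochberg adjustment over all 45037 probe sets, and a gene was called at an adjusted p under 0.05. The test of the study's methods, a Welch one-way analysis over the 3 diets followed by Tukey's test, was run on the same values. It is called the methods' test, and a gene passed it only if both the adjusted Welch p and the Tukey p were under 0.05. The study first kept only probe sets with Present detection calls throughout at least 1 diet group. That filter was not used here, so the methods' test does not repeat the study's own result. A gene is given by its probe set of highest mean signal, so levels are compared between groups and not between genes. Between CL+CX and NC, 812 of 18193 genes were called (4.46%), 410 of them higher (2.25%) and 402 lower (2.21%) on the supplemented diet. The difference was at least 2-fold in 178 of the higher and 109 of the lower genes. Without regard to the test, the values of the 2 groups did not overlap in 1609 genes (8.84%). Between CL and NC, which share the NC arrays with this comparison, 1245 genes (6.84%) were called, 649 higher (3.57%) and 596 lower (3.28%). Between CL+CX and CL 221 (1.21%) were, 106 higher (0.583%) and 115 lower (0.632%).

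The called genes were divided by the other 2 comparisons. In 419 genes (2.3% of all) the difference from NC was also called on the plain CL diet in the same direction, and these are said to have stayed changed, 230 of them higher and 189 lower. In 68 genes (0.374%) the difference was called against NC and against CL in the same direction but not between CL and NC, and these are said to be newly changed, 37 higher and 31 lower. Of the rest, 323 genes (1.78%) passed against NC only and were left undecided, since passing in 1 comparison and not in another does not show that they differ. The last 2, Gpr146 and Tef, were above NC on the supplemented diet and below NC on the plain diet. The median size of the difference from NC in genes that stayed changed was 0.89 on CL+CX and 0.89 on CL, and in newly changed genes it was 0.93 and 0.18. The rule that made these groups fixed much of those sizes. In probe sets, 1485 were called (3.3%), 717 higher (1.59%) and 768 lower (1.71%), of which 705 stayed changed (1.57% of all tested), 106 were newly changed (0.235%), 672 were undecided (1.49%) and 2 turned. The number of newly changed probe sets was 20 in a fit of only the 2 groups compared, 20 with the signals as deposited, 20 in limma without a trend and 1 when each array's β-actin 3′ minus 5′ value was a covariate. Leaving out 1 mouse at a time gave between 27 newly changed probe sets, without CL+CX replicate 3, and 197, without CL replicate 5.

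The arrays of a group were alike, with a mean correlation to the other arrays of their group between 0.910 and 0.932. The lowest was CL replicate 2, which lay among the NC mice on the first principal component, at -61.0 where NC mice lay at -75.3 to -62.1 and the other CL mice at 32.0 to 71.0. On the second component it lay at -169, below all other mice. There NC mice lay at 9.28 to 37.1, the other CL mice at -31.1 to -1.82 and CL+CX mice at -2.28 to 42.5. The 2 components held 11.7% and 9.64% of the variance. On neither did the mouse go with the others of its label, on the second it lay apart from every group, and its label was kept. It is no member of the comparison but enters the spread of the fit and the CL mean that divides the called genes. Without it 2456 probe sets were called, 1289 stayed changed and 92 were newly changed. Of the 16 newly changed genes given with values here, 10 were newly changed without it. Clec2h and Rnf125 then stayed changed, and Igfbp1, P2ry2, Pklr and 1700088E04Rik were undecided. The β-actin value (3′ minus 5′ probe set), a sign of RNA integrity, was 0.949 to 1.17 in CL+CX, 0.842 to 1.05 in NC and 0.699 to 0.945 in CL on the log2 scale, so that CL+CX and CL did not overlap. The same value of GAPDH was -0.361 to -0.126 in CL+CX, -0.476 to -0.323 in NC and -0.532 to -0.288 in CL. With the actin value as a covariate 493 probe sets were called. The part of RNA integrity in the results was not tested. With the signals as deposited, without this scaling, the median over all genes was 0.19 in place of -0.041, and 1117 of 1236 called probe sets (90.4%) were higher against 717 of 1485 (48.3%) after scaling. Direction is therefore stated relative to the scaled median. The tissue label fitted its markers: albumin (Alb), the main hepatocyte secretion, read 9704 to 12408 in NC and 7099 to 8841 in CL+CX. The summed signal of 12 hepatocyte markers was 69400 to 86700 in NC and 54200 to 64700 in CL+CX, without overlap. Of the 12, 1 was called, lower (8.33%, against 4.46% of all genes). In bulk liver, fewer cells of a type and less RNA per cell cannot be told apart, and the part of cell composition in the results was not tested.

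**Figure D1:**
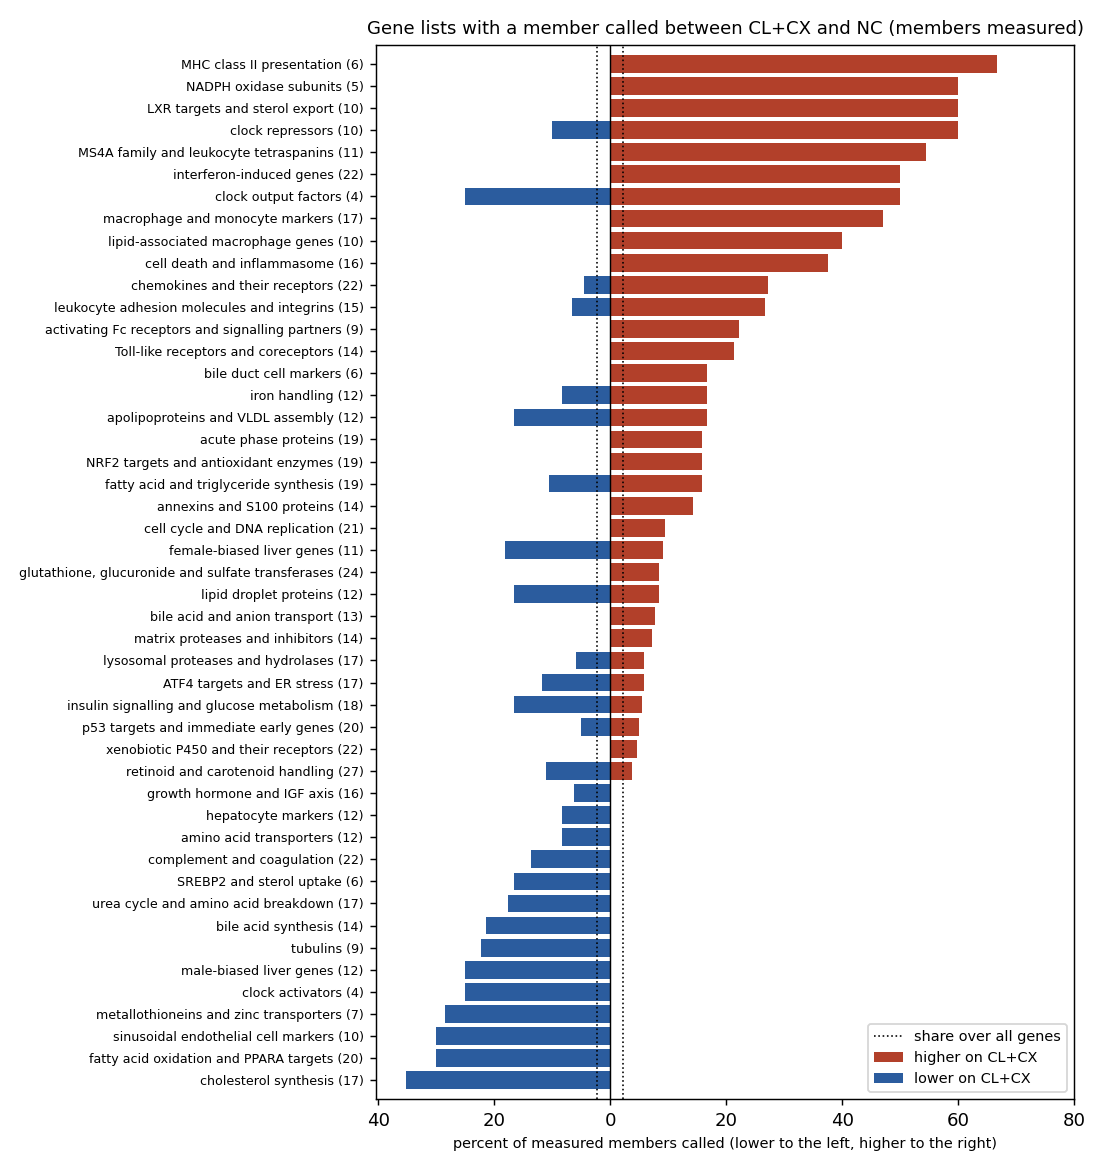
Percent of the measured members of each gene list that were called between CL+CX and NC, higher to the right and lower to the left, for the 47 of 58 lists with a member called. Dotted lines mark the share over all 18193 genes (2.25% higher, 2.21% lower), and MHC class II, NADPH oxidase, LXR target and clock repressor lists have the longest bars to the right.

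The 18 clock genes measured held 7 of the 68 newly changed genes, and 0.374% of all genes were newly changed. Their lists were drawn up with earlier results of these data known. Of the 10 clock repressors measured, 6 were higher on CL+CX than in NC and 1 was lower. Of the 4 activators 1 was lower, and of the 4 output factors 2 were higher and 1 was lower. Over all genes 2.25% were called higher and 2.21% lower. Between CL and NC limma called none of the 10 repressors (3 at an unadjusted p under 0.05), 1 activator, Npas2, and 2 output factors, Tef and Hlf. The median difference of the repressors from NC was 0.88 on CL+CX and -0.07 on CL, against -0.041 and -0.060 over all genes. The number of higher repressors was 2 without NC replicate 1 or CL+CX replicate 1 or 2 and 3 without NC replicate 3 or CL+CX replicate 3, 4 or 5.

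Dbp, a PAR bZIP activator that is a direct output of the clock, had the largest of these differences. Its scaled signals were 53.9, 36.9, 49.3, 77.0 and 50.9 in the NC mice (replicates 1 to 5, as in all lists of values), 38.3, 33.3, 32.2, 21.4 and 77.3 in the CL mice and 683, 582, 737, 599 and 624 in the CL+CX mice. Every CL+CX mouse was far above every mouse of the other groups, which overlapped each other. The rise was 12.3-fold (3.62 ± 0.25, adjusted p = 2.44e-06) against NC, and Dbp was 4.12 above CL on the log2 scale (adjusted p = 3.09e-07). Dbp was newly changed in 25 of 26 repeats of the analysis, 11 with another setting and 15 with 1 mouse left out.

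Arntl, which encodes the activator BMAL1, moved the other way. Its signals were 132, 141, 118, 108 and 139 in NC, 98.8, 117, 106, 114 and 62.6 in CL and 36.0, 34.4, 42.9, 16.6 and 40.6 in CL+CX. The CL+CX mice were the lowest of the 15, with replicate 4 well below the others of its group. Arntl fell by 1.97 (3.91-fold, adjusted p = 0.000211), against a CL difference of -0.38 ± 0.22 (adjusted p = 0.437). Of its 2 probe sets 1 was called. Nfil3, a bZIP repressor that competes for the sites of DBP, read 302, 319, 416, 230.5 and 348 in NC and 82.4, 80.2, 122, 81.0 and 132 in CL+CX. The groups did not overlap, and Nfil3 fell 3.27-fold (-1.71 ± 0.22, adjusted p = 0.000533). Cry1, a repressor of ARNTL and CLOCK, read 69.2, 68.2, 57.5, 61.4 and 57.5 in NC and 35.6, 35.0, 23.5, 34.9 and 21.1 in CL+CX, again without overlap, and fell 2.13-fold (-1.09 ± 0.17, adjusted p = 0.00236). All 3 were newly changed, Arntl in 24, Nfil3 in 23 and Cry1 in 20 of the 26 repeats. The call of Cry1 was lost in the methods' test.

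The repressors that rose were Per2, Per3, Cry2, Nr1d1, Nr1d2 and Ciart. Nr1d2, an orphan nuclear receptor that represses Arntl, read 488, 391, 479, 434 and 484 in NC, 416, 406, 363, 232 and 447 in CL and 677, 759, 787, 809 and 749.5 in CL+CX. All CL+CX mice were above all others, and the rise was small in size, 1.66-fold (0.73 ± 0.14, adjusted p = 0.00797). Cry2 read 30.8 to 58.5 in NC and 68.4 to 96.5 in CL+CX and rose by 0.98 (adjusted p = 0.00622). Both were newly changed and kept their calls against NC in all 15 fits that left out 1 mouse. The other 4 had calls closer to the threshold. Per3 read 10.2, 19.3, 18.0, 29.7 and 28.8 in NC, 16.1, 2.7, 12.9, 10.9 and 16.6 in CL and 60.1, 64.1, 67.1, 56.3 and 51.0 in CL+CX, a rise of 1.59 ± 0.41 (adjusted p = 0.0437) that was lost in 11 of the 15 fits with 1 mouse left out, with an adjusted p of up to 0.122 without NC replicate 1. Nr1d1, which encodes the repressor REV-ERBα, read 3.21, 3.00, 33.3, 6.52 and 23.2 in NC, 3.35, 4.08, 6.15, 18.5 and 27.5 in CL and 57.1, 51.0, 44.4, 58.6 and 49.4 in CL+CX. The CL+CX mice were close together and above every NC mouse, while NC and CL mice each divided into low and high values. Its rise of 2.58 ± 0.67 (adjusted p = 0.0435) was lost in 9 of the 15 fits with 1 mouse left out, with an adjusted p of up to 0.122 without NC replicate 1. Per2 rose by 1.40 ± 0.32 (adjusted p = 0.0224, lost in 5 of the 15 fits with 1 mouse left out, with an adjusted p of up to 0.0714 without NC replicate 1). Ciart, a repressor of ARNTL and CLOCK, was below the array median in all NC mice (2.34 to 10.7) and above it in all CL+CX mice (14.9 to 46.7), at least 1.85-fold higher (adjusted p = 0.0339, lost in 8 of the 15 fits with 1 mouse left out, with an adjusted p of up to 0.0937 without CL+CX replicate 1). These 3, Per2, Nr1d1 and Ciart, were not called between CL+CX and CL and stay undecided. The calls of Per2, Per3, Nr1d1 and Ciart were lost in the methods' test, and those of Per2, Per3 and Nr1d2 with a gene's probe sets averaged.

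Movement in both directions was seen in Tef, the PAR bZIP relative of Dbp. Tef read 373, 357, 399, 384 and 356 in NC, 239, 198, 204, 194 and 293 in CL and 533, 471, 527, 461 and 520.2 in CL+CX, so that the 3 groups did not overlap, with CL lowest and CL+CX highest. It was 0.43 ± 0.11 above NC on CL+CX (adjusted p = 0.0343) and -0.75 ± 0.11 on CL (adjusted p = 0.000488), and the rise was lost in 9 of the 15 fits with 1 mouse left out, with an adjusted p of up to 0.0804 without NC replicate 5. Gpr146, a G protein-coupled receptor with roles in cholesterol metabolism that was named after its values were seen, had the same order of means, at 140.2 to 203 in NC, 85.2 to 151 in CL and 246 to 274 in CL+CX (0.56 ± 0.14, adjusted p = 0.0318, lost in 7 of the 15 fits with 1 mouse left out, with an adjusted p of up to 0.0926 without NC replicate 1). Not every clock gene differed from NC. Hlf, also a PAR bZIP gene, read 146 to 216 in NC and 134 to 187 in CL+CX (-0.01 ± 0.16) and was called only on CL (-0.86, adjusted p = 0.00509). Npas2, a relative of Clock, was below the array median in every NC and CL+CX mouse and above it in every CL mouse (16.8 to 31.7). Clock (-0.35 ± 0.14), Rora (-0.21 ± 0.13), Per1 (-0.51 ± 0.22), Bhlhe40 (0.77 ± 0.33) and Bhlhe41 (-0.37 ± 0.69) were not called. Per1 was nonetheless lower in every CL+CX mouse (64.9 to 96.0) than in any NC mouse. With the actin covariate 1 repressor was called higher, Per2, and 1 lower, Cry1, the calls of Tef and Gpr146 were lost, and Dbp, Arntl and Nfil3 were still called against NC. In that fit Dbp was still newly changed (adjusted p against CL 0.00167). Arntl, Nfil3 and Cry1 were undecided there, with adjusted p against CL of 0.913, 0.913 and 0.908. With the signals as deposited the call of Cry1 was lost. The part of RNA integrity in these values was not tested, and the hour of collection of each group is not given in the sources used here. The calls of Tef and Gpr146 were lost with a gene's probe sets averaged.

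**Figure D2:**
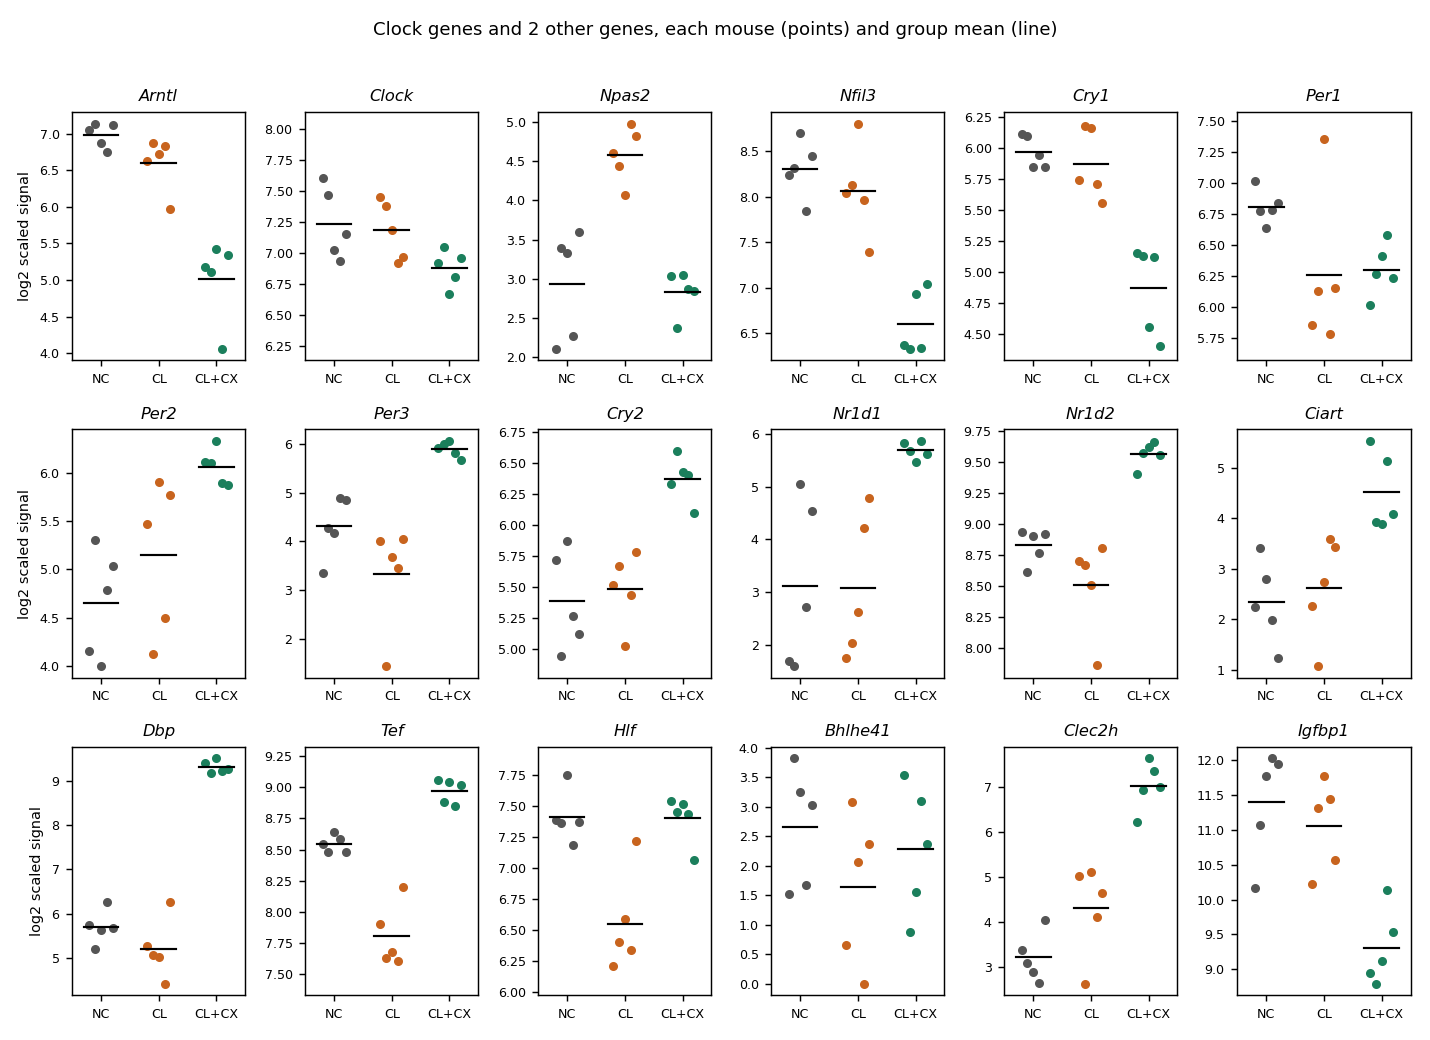
Log2 scaled signal of 16 clock genes and of Clec2h and Igfbp1 in every mouse, by diet, with the group mean as a line and its own vertical scale in each panel. Dbp lies at 582 to 737 in CL+CX and at or below 77.3 in NC and CL, while Arntl, Nfil3 and Cry1 are lowest in CL+CX.

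Some of these genes carry the clock's binding letters just before their start. Of 18 clock genes measured, 16 matched a RefSeq promoter window (GRCm38.p6), and in the 250 bases before the start the E-box CACGTG, which reads the same on both strands and is bound by ARNTL with CLOCK, was found in 5 of them (31.2%, against 6.86% of all 27025 genes with a window). They were Ciart, Cry1, Per1, Tef and Bhlhe41, which moved in both directions or were not called. The D-box TTATGTAA, searched on both strands and bound by DBP, TEF, HLF and NFIL3, was found in 1, Per3, against 0.977% of all genes. The windows below are shown for 2 repressors that moved in opposite directions and for the D-box gene, on the gene's strand, with the motif in capitals. Ciart has 3 E-boxes (minus strand, chr3:95882229-95882478), Cry1 has 1 (minus strand, chr10:85185055-85185304) and Per3 has 2 D-boxes (minus strand, chr4:151044666-151044915). A match describes the letters and not binding in these livers.
Ciart: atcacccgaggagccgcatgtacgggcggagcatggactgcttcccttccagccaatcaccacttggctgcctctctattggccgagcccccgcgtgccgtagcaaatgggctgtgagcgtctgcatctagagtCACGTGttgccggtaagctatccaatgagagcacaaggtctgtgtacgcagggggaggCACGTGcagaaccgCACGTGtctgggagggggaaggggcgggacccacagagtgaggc
Cry1: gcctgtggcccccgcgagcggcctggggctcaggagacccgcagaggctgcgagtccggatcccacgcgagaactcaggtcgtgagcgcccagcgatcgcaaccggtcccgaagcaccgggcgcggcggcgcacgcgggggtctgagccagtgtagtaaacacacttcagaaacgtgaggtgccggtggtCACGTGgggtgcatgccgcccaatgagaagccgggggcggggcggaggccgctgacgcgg
Per3: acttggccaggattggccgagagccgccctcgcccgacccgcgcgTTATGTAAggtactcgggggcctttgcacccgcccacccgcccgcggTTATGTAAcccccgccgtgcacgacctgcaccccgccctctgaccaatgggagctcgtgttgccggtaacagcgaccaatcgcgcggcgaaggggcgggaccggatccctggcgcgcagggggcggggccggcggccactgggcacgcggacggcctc

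Outside the clock, Clec2h had the largest newly changed difference. Clec2h encodes a C-type lectin-like protein and read 10.5, 8.57, 7.5, 6.34 and 16.7 in NC, 32.4, 6.24, 34.6, 17.3 and 25.1 in CL and 74.4, 122, 201, 163 and 128 in CL+CX. All CL+CX mice were above all NC and CL mice, and the rise was 3.81 ± 0.41 (adjusted p = 0.000119). In NC 1 of 5 mice was above the array median, so no fold is given. All 3 of its probe sets were called higher, and it was newly changed in 23 of the 26 repeats. Without CL replicate 2, the CL mouse at 6.24, it was also called between CL and NC (adjusted p = 0.00757) and counted as stayed changed. Igfbp1, a secreted IGF binding protein that is high in fasting and under low insulin, read 1150.1, 2159, 3499, 4194 and 3940.0 in NC, 1193, 2552, 3491, 2780.4 and 1519 in CL and 495, 444, 553, 1124 and 739 in CL+CX. The CL+CX mice lay below every NC mouse, with NC replicate 1 nearest, and Igfbp1 fell 4.27-fold (-2.10 ± 0.36, adjusted p = 0.00359). The call of Igfbp1 was lost in the methods' test. With the actin covariate Clec2h and Igfbp1 were still called against NC but were undecided (adjusted p against CL 0.78 and 0.92).

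Cdkn1a, which encodes the cell cycle inhibitor p21, read 168, 380.4, 95.3, 163 and 175 in NC, 157, 245, 155, 257 and 211 in CL and 60.9, 41.4, 30.8, 95.5 and 44.3 in CL+CX. Only CL+CX replicate 4 reached the lowest NC mouse, and Cdkn1a fell 3.5-fold (-1.81 ± 0.32, adjusted p = 0.00404), with both of its probe sets called. Rnf125, a ubiquitin ligase, fell, with signals of 2783 to 3378 in NC and 781 to 1235 in CL+CX (-1.61 ± 0.19, adjusted p = 0.000379), with CL mice at 1308 to 3271, of which replicate 2 lay within the NC range. Chac1, a glutathione-degrading enzyme, rose, with signals of 15.2 to 33.1 in NC and 52.2 to 85.6 in CL+CX (1.48 ± 0.24, adjusted p = 0.00293). P2ry2, a nucleotide receptor, was below the array median in all NC mice (1.63 to 2.66) and above it in only some CL+CX mice (7.48 to 16.9), and no fold is given. Cdkn1a was newly changed in 23 of the 26 repeats, Igfbp1 in 13, Rnf125 in 11, Chac1 in 10 and P2ry2 in 9. With the actin covariate the calls of P2ry2 and 5930403N24Rik were lost. Cdkn1a, Rnf125 and Chac1 were then still called against NC but were undecided (adjusted p against CL 0.876, 0.961 and 0.959). Of the 10 newly changed genes with the largest differences, the others were Dbp, Arntl and Nfil3 and 2 unnamed transcripts near background, 5930403N24Rik (2.25 to 10.9 in NC and 1.00 to 1.31 in CL+CX) and 1700088E04Rik (7.66 to 17.0 and 1.55 to 10). The call of 1700088E04Rik was lost in 13 of the 15 fits with 1 mouse left out, with an adjusted p of up to 0.115 without NC replicate 3. The calls of Cdkn1a and 1700088E04Rik were lost in the methods' test.

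Several lipogenic and sterol export genes were above NC on the supplemented diet. Of 10 LXR targets and sterol exporters, 6 were called higher (against 2.25% of all genes) and none lower. Their median was 0.70 on CL+CX and 0.40 on CL, and 5 of the 6 stayed changed from the plain diet. Abcg5, which with Abcg8 forms the pump that moves sterols into bile, read 385, 599, 419, 452 and 373 in NC, 688, 1094, 1084, 726 and 859 in CL and 1320.5, 1435, 1236, 1108 and 1358 in CL+CX. The 3 groups did not overlap, with CL between the others. Abcg5 was 2.93-fold above NC (1.55 ± 0.15, adjusted p = 6.96e-05). Abcg8 read 147, 203, 137, 170.1 and 193 in NC and 410.4, 469.9, 441, 352 and 433 in CL+CX and was 1.32 ± 0.15 above NC (adjusted p = 0.000183) and 0.77 above CL (adjusted p = 0.025).

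Srebf1, which encodes the lipogenic factor SREBP1, read 165, 165, 309, 196 and 204 in NC, 326, 306, 533, 316 and 361 in CL and 599, 492, 603, 557 and 785 in CL+CX. Every CL+CX mouse was above every NC mouse, and the rise of 1.57 ± 0.18 (adjusted p = 0.000224) stood beside 0.83 ± 0.18 on CL. Abcg1, a cholesterol exporter to HDL, was 1.15 ± 0.14 above NC (adjusted p = 0.00052) and the same on CL (1.15). Of 19 fatty acid and triglyceride synthesis genes, 3 were higher and 2 lower (5 without CL replicate 2), against 2.25% and 2.21% of all genes. Thrsp, a lipogenic protein of liver and fat, read 73.2, 137, 211, 129 and 71.2 in NC, 172, 232, 447, 71.8 and 819 in CL and 1147, 1101, 576, 1086 and 417 in CL+CX. No NC mouse reached the CL+CX mice, while CL mice ranged across both, and Thrsp rose 7.01-fold (2.81 ± 0.51, adjusted p = 0.00487). Acaca, the cytosolic acetyl-CoA carboxylase that makes malonyl-CoA and a gene named after its values were seen, read 62.2 to 68.6 in NC and 114 to 164 in CL+CX (0.95 ± 0.17, adjusted p = 0.00417), and fatty acid synthase (Fasn) 72.4 to 146 and 180.4 to 268 (1.15 ± 0.30, adjusted p = 0.0416). The Fasn call was lost in 11 of the 15 fits with 1 mouse left out, with an adjusted p of up to 0.107 without NC replicate 1. Pklr, the liver pyruvate kinase at the end of glycolysis, was newly changed, with 57.4, 61.1, 89.3, 68.3 and 70.0 in NC and 119, 182, 129, 164 and 117 in CL+CX (1.03 ± 0.20, adjusted p = 0.00899), and was so in 8 of the 26 repeats. The calls of Fasn and Pklr were lost in the methods' test, and those of Abcg1 and Acaca with a gene's probe sets averaged.

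Lipogenesis genes did not move together. Acacb, the mitochondrial acetyl-CoA carboxylase whose product restrains fatty acid oxidation, was lower in every CL+CX mouse than in any NC mouse, at 20.1 to 47.6 against 75.2 to 105 (-1.42 ± 0.26, adjusted p = 0.0049). Me1, the malic enzyme that makes NADPH, fell, with signals of 443 to 678 in NC and 176 to 305 in CL+CX (-1.20 ± 0.15, adjusted p = 0.000533). Their differences from NC on the plain CL diet were -1.31 and -1.34. With the actin covariate the calls of Thrsp, Acaca, Fasn and Pklr were lost and those of Acacb and Me1 were kept. The coactivator Ppargc1b, named after its values were seen, read 127 to 186 in NC, 151 to 209.5 in CL+CX and 56.9 to 91.8 in CL, a difference from NC of 0.17 ± 0.14 on CL+CX (adjusted p = 0.615) and of -1.01 on CL (adjusted p = 0.00042). CL+CX lay 1.19 above CL (adjusted p = 0.00101). The call of Acacb was lost with a gene's probe sets averaged.

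Some genes of cholesterol synthesis stayed low on the supplemented diet. Of 17 enzymes measured, 6 were lower than NC and none higher, and all 17 lay below 0. The median was -0.52 on CL+CX and -0.81 on CL, where 9 were called. Over all genes 2.21% were called lower on CL+CX and 3.28% on CL. All 6 stayed changed from the plain diet. Cyp51, the lanosterol demethylase, read 70.7, 42.2, 85.0, 57.3 and 75.3 in NC and 27.2, 22.0, 26.3, 28.4 and 19.3 in CL+CX. The groups did not overlap, and Cyp51 was 2.63-fold lower (-1.40 ± 0.21, adjusted p = 0.00155). Fdps, farnesyl diphosphate synthase, fell by 1.45 on the log2 scale (59.4 to 126 in NC and 25.7 to 43.0 in CL+CX, adjusted p = 0.00201). Msmo1, a sterol C4-methyl oxidase, was at -1.51 ± 0.31 (adjusted p = 0.0117) and Tm7sf2, a sterol reductase, at -0.94 ± 0.15 (adjusted p = 0.00293). The sterol regulatory letters TCACNCCAC, searched on both strands, lay in the 250 bases before the start of 1 of the 19 matched genes of cholesterol synthesis and uptake, Hmgcs1, against 1.22% of all genes. With the signals as deposited 3 of the 17 were called lower, Tm7sf2 not among them, and with the actin covariate 4 were, Msmo1 not among them. The calls of Fdps, Msmo1 and Tm7sf2 were lost in the methods' test, and those of Fdps and Msmo1 with a gene's probe sets averaged.

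Bile acid synthesis stayed low at Cyp8b1 and Cyp7b1. Of 14 enzymes and regulators 3 were lower than NC (against 2.21% of all genes) and none higher, and all 3 stayed changed from the plain diet. The number was 1 without NC replicate 1 or 2. Cyp8b1, a 12α-hydroxylase needed to make cholic acid, read 4536, 4801, 3766, 4108 and 3496 in NC, 221, 3424, 857, 380.3 and 209 in CL and 301, 171, 331, 170.2 and 452 in CL+CX. All 5 CL+CX mice were far below NC, and of the CL mice replicate 2 was at the NC level. Cyp8b1 was 15.5-fold lower (-3.96 ± 0.56, adjusted p = 0.00104). Cyp7b1, the oxysterol 7α-hydroxylase, read 3621, 3954, 2723, 3675 and 2672 in NC and 1113, 974, 1453, 1091 and 1758 in CL+CX (-1.40 ± 0.31, adjusted p = 0.0203), a fall without overlap that was lost in 5 of the 15 fits with 1 mouse left out, with an adjusted p of up to 0.0583 without NC replicate 1. Cyp7a1, the rate-limiting enzyme of the classic pathway, was named after its values were seen. It read 617, 878, 901, 930.3 and 538 in NC and 282, 349, 464, 226 and 264 in CL+CX, without overlap, yet missed the test (-1.30 ± 0.44, adjusted p = 0.124), in a fit whose spread holds CL mice at 124 to 1099.6. The call of Cyp7b1 was also lost with the actin covariate, and the median of the list, -0.17, was 0.08 with the signals as deposited. Of 13 bile acid and anion transporters 1 was called (7.69%, against 4.46% of all genes), and the number was 2 without CL replicate 1 and 3 without CL replicate 2. It was Atp8b1, a flippase of the canalicular membrane, at 90.5 to 129 in NC and 171 to 208 in CL+CX (0.82 ± 0.13, adjusted p = 0.00249). The call of Cyp7b1 was lost with a gene's probe sets averaged.

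Some genes of fatty acid oxidation and of the fasted state were lower. Of 20 genes of fatty acid oxidation and PPARα targets, 6 were lower (against 2.21% of all genes) and none higher. The median was -0.26 on CL+CX and -0.39 on CL, and with the signals as deposited 1 of the 20 was called. Pdk4, the kinase that shuts pyruvate dehydrogenase in fasting, read 267, 126, 263, 284 and 443 in NC, 153, 98.9, 75.2, 323 and 79.4 in CL and 40.3, 41.9, 36.8, 63.6 and 43.7 in CL+CX. The CL+CX mice were below all NC and CL mice, and Pdk4 was 5.78-fold below NC (-2.53 ± 0.35, adjusted p = 0.000978). It was undecided, at -1.48 against CL (adjusted p = 0.0599). Ppargc1a, the coactivator of gluconeogenesis and oxidation, read 129.7 to 246 in NC and 77.9 to 123 in CL+CX (-1.01 ± 0.19, adjusted p = 0.00715), and the acyl-CoA thioesterases Acot1 and Acot3 were at -1.16 ± 0.23 and -1.55 ± 0.31 (adjusted p = 0.00949 and 0.0103). With the signals as deposited the calls of these last 3 were lost and the list's median was -0.010. The calls of Ppargc1a, Acot1 and Acot3 were lost in the methods' test.

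A pair of glycogen regulators was lower on CL+CX. Ppp1r3g, a glycogen-targeting subunit of protein phosphatase 1, read 202, 31.6, 58.0, 47.5 and 138 in NC, 5.54, 7.11, 134, 13.6 and 1.49 in CL and 1.96, 1.00, 1.00, 9.68 and 6.91 in CL+CX. All CL+CX mice were below the array median and all NC mice above it, at least 6.05-fold lower (adjusted p = 0.00972). Its relative Ppp1r3b fell, with signals of 978 to 1372 in NC and 422 to 560.0 in CL+CX without overlap (-1.21 ± 0.21, adjusted p = 0.00348). The list counts that follow stand beside 2.25% of all genes called higher and 2.21% lower. Of 18 genes of insulin signalling and glucose metabolism, 1 was called higher, Pklr, and 3 lower. The number lower was 1 without NC replicate 2 or 5 or CL+CX replicate 5. Of 12 lipid droplet proteins 2 were lower and 1 was higher, a call that was lost in 7 of the 15 fits with 1 mouse left out. G0s2, the inhibitor of the lipase ATGL, read 1955, 2680.3, 2889, 2419.9 and 2011 in NC and 623, 558, 721, 670.0 and 1130.1 in CL+CX, 3.29-fold lower without overlap (-1.72 ± 0.24, adjusted p = 0.00112), and Fitm2, which promotes droplet budding, fell by 0.87 on the log2 scale (adjusted p = 0.0017). Of 12 apolipoprotein and VLDL genes 2 were higher and 2 lower, and all 4 stayed changed. The number lower was 1 without NC replicate 1, 2, 3 or 5 or CL+CX replicate 1, 2, 3, 4 or 5. Apoc2, the cofactor of lipoprotein lipase, rose, with signals of 1823 to 2145 in NC and 3331 to 3989 in CL+CX (0.85 ± 0.12, adjusted p = 0.0013), Apoa4 was at 1.31 ± 0.26 (adjusted p = 0.0105), and Apom, the carrier of sphingosine phosphate, at -0.72 ± 0.14 (adjusted p = 0.00832). With the actin covariate the calls of Ppp1r3g, Apoa4 and Apom were lost, and with the signals as deposited those of Fitm2 and Apom. The calls of Ppp1r3g and Apoa4 were lost in the methods' test.

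**Figure D3:**
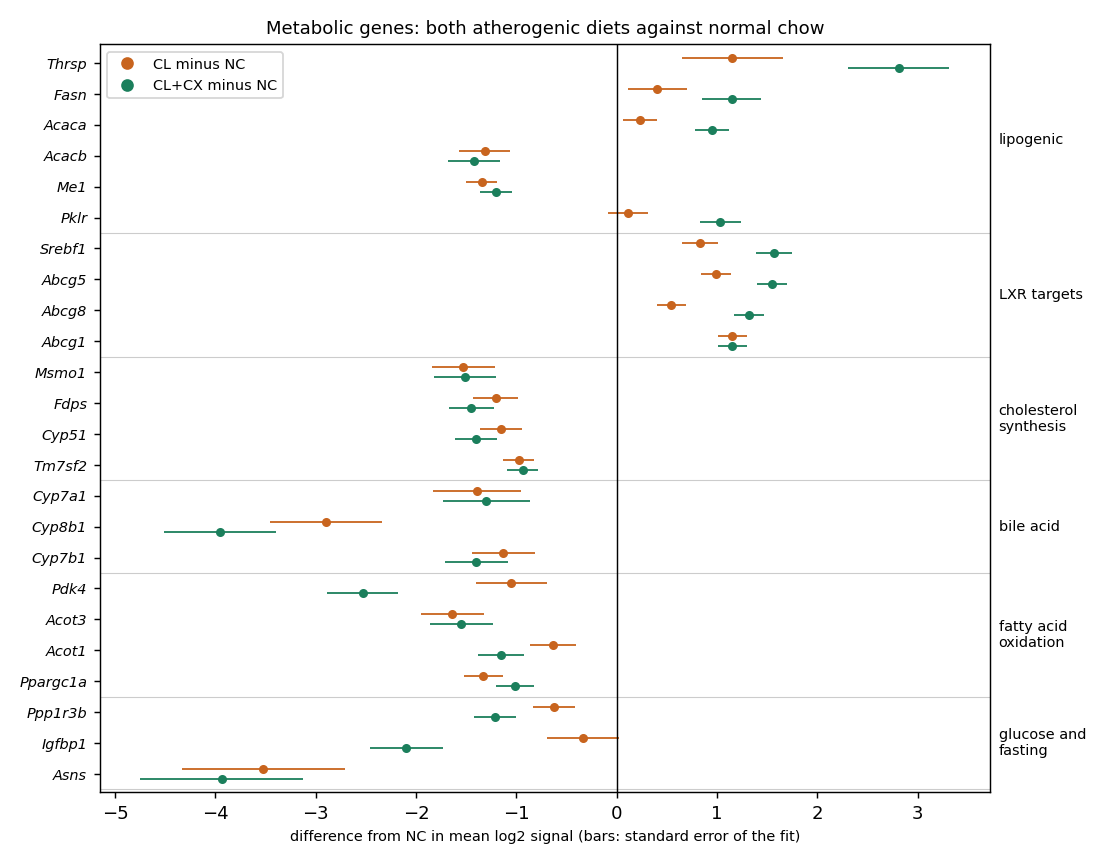
Difference from NC in mean log2 signal on CL+CX (green) and on CL (orange) for 24 metabolic genes, with the standard error of the fit as bars and 5 mice in each group. Thrsp, Pklr and Igfbp1 lie further from 0 on CL+CX, the bars of the 2 diets overlap in Msmo1, Fdps, Cyp51 and Tm7sf2, and the 2 sets of points share the NC mice.

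Interferon-induced genes were among those that stayed changed. Of 22 measured, 11 were higher on CL+CX and none lower, 10 of them stayed changed, and 15 were higher on CL. Over all genes 2.25% were called higher on CL+CX and 3.57% on CL. The median difference from NC was 1.11 on CL+CX and 1.15 on CL, and between CL+CX and CL limma called none of the 22 (3 at an unadjusted p under 0.05). Ubd, an interferon-induced ubiquitin-like protein, read 8.04, 12.0, 11.2, 22.9 and 24.8 in NC, 145, 109, 157, 398 and 139 in CL and 151, 84.3, 41.1, 203 and 365 in CL+CX. Every CL+CX mouse was above every NC mouse, with replicate 3 lowest and replicate 5 highest, and the rise was 9.11-fold (3.19 ± 0.49, adjusted p = 0.00177). Gbp3, an interferon-induced GTPase, read 27.5, 32.3, 24.1, 33.1 and 25.4 in NC and 84.5, 87.0, 98.4, 139 and 334 in CL+CX. It did not overlap between the groups and rose 4.51-fold (2.17 ± 0.36, adjusted p = 0.0032). Gbp2 read 26.1 to 37.4 in NC and 105, 84.0, 41.8, 205 and 397 in CL+CX (1.99 ± 0.45, adjusted p = 0.0211, lost in 3 of the 15 fits with 1 mouse left out, with an adjusted p of up to 0.0612 without NC replicate 1), and Cxcl9, a chemokine for activated T cells, 42.6 to 75.5 in NC and 285, 141, 55.0, 625 and 969 in CL+CX (2.27 ± 0.57, adjusted p = 0.0363, lost in 8 of the 15 fits with 1 mouse left out, with an adjusted p of up to 0.0955 without CL+CX replicate 4). In Gbp2 and Cxcl9 CL+CX replicate 3 lay at or near the NC level and replicate 5 was highest of the 15 mice. Outside the list, Calhm6 was below the array median in all NC mice (6.47 to 12.2) and at 30.9 to 148 in CL+CX, at least 4.64-fold higher (adjusted p = 0.00052). Ifi27l2b, of an interferon-induced family, rose, with signals of 1.66 to 39.0 in NC and 77.8 to 146 in CL+CX (3.49 ± 0.62, adjusted p = 0.00424). With the actin covariate 5 of the 22 were called, Gbp2 and Cxcl9 not among them, and the number called was 6 without NC replicate 1 or 2 or CL+CX replicate 4 and 7 without NC replicate 3. The calls of Gbp3, Gbp2 and Ifi27l2b were lost in the methods' test, and that of Cxcl9 with a gene's probe sets averaged.

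The interferon-stimulated response letters GAAA, any 2 bases and GAAA again, searched on both strands, lay in the 250 bases before the start of 10 of the 20 matched genes of this list, against 3.46% of all genes. The 10 were Cxcl10, Gbp2, Gbp3, Ifit1, Ifit3, Igtp, Irgm1, Oas1a, Rsad2 and Stat2. The windows of 2 of the list's 4 largest rises are shown (GRCm38.p6, plus strand), with the match in capitals on the complementary strand, for Gbp3 at chr3:142559794-142560043, where 2 matches overlap, and for Gbp2 at chr3:142620413-142620662.
Gbp3: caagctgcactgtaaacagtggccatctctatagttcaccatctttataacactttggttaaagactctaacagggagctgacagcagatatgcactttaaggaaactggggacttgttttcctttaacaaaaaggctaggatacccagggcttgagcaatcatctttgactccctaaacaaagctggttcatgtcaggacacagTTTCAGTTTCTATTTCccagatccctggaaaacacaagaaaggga
Gbp2: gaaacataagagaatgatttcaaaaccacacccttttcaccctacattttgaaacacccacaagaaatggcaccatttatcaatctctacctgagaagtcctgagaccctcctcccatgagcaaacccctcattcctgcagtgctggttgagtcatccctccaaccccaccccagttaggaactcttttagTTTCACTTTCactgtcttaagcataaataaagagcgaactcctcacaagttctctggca

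Some macrophage and antigen presentation genes were above NC on CL+CX, where 2.25% of all genes were called higher, against 3.57% on CL. Of 17 macrophage and monocyte markers 8 were higher on CL+CX and none lower, against 16 on CL, with medians of 0.97 and 2.09, and 10 of the 17 were lower on CL+CX than on CL. Their summed signal was 1380 to 2900 in NC, 2890 to 6750 in CL+CX and 8450 to 10400 in CL, and 2 of the 17 in NC and 1 in CL+CX were below the array median on all arrays. Lyz2, lysozyme of myeloid cells, read 104, 253, 186, 207 and 170.1 in NC, 1599.5, 1241, 1387, 1668 and 1469 in CL and 1126, 589, 267, 443 and 608 in CL+CX. Each CL+CX mouse lay above every NC mouse and below every CL mouse, and Lyz2 stayed 3.08-fold above NC (1.62 ± 0.29, adjusted p = 0.00423).

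Not all macrophage markers stayed above NC. Adgre1, which encodes F4/80, read 56.1, 85.9, 71.0, 109 and 97.7 in NC, 145, 181, 232, 154 and 181 in CL and 114, 73.9, 61.1, 72.5 and 125 in CL+CX. The CL+CX mice overlapped the NC mice (0.07 ± 0.21, adjusted p = 0.922), and all CL mice were above them. Cd68 (0.73 ± 0.30, adjusted p = 0.228), C1qa (0.56 ± 0.21, adjusted p = 0.167), Csf1r (0.53 ± 0.20, adjusted p = 0.171) and Tyrobp (0.97 ± 0.28, adjusted p = 0.068) also missed the test, each with overlap. Ccr2, the chemokine receptor of recruited monocytes, was below the array median in all NC mice (4.5 to 10.9) and at 25.4 to 46.5 in CL+CX, at least 2.58-fold higher (adjusted p = 0.000533), beside 24.5 to 70.6 in CL, and 1 of its 4 probe sets was called. Of the 7 Kupffer cell markers 6 lay above 0, with medians of 0.48 on CL+CX and 1.33 on CL. Their summed signal was 544 to 1450 in NC, 1220 to 2340 in CL+CX and 2050 to 4650 in CL. Among them Clec4f, a lectin specific to these cells, read 117 to 258 in NC and 199 to 280.4 in CL+CX (0.24 ± 0.32, adjusted p = 0.784). Of the 36 markers of Kupffer, T, B and plasma, natural killer and neutrophil cells, limma called none against NC, 7 had an unadjusted p under 0.05, and the methods' test called 0. Of the 7 Kupffer markers 2 were called higher with either filter on dim probe sets and with the signals as deposited. The filter by group admits a probe set through any group where its signal is high, and the other filter uses the mean of all arrays. Cd3d, a defining T cell gene, was near background in NC (1.12 to 13.1) and CL+CX (4.77 to 14.1), at a difference of 1.52 ± 0.69 (adjusted p = 0.281). Of the 8 T cell markers 7 lay above 0, with medians of 0.52 on CL+CX and 0.74 on CL. The call of Ccr2 was lost with a gene's probe sets averaged.

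Of 6 genes of MHC class II presentation, 4 were higher on CL+CX and all 6 on CL, against 2.25% and 3.57% of all genes. Their medians were 1.35 and 2.38, and 2 of the 6 were called lower on CL+CX than on CL. The 4 stayed called in all fits with 1 mouse left out and with the actin covariate. Cd74, the invariant chain, read 112, 124, 131, 155 and 152 in NC and 779, 329, 202, 483 and 687 in CL+CX, with no overlap and CL+CX replicate 3 lowest of its group (3.31-fold, 1.73 ± 0.30, adjusted p = 0.00406). H2-Eb1 was at 1.58 ± 0.25, H2-Ab1 at 1.37 ± 0.24 and H2-Aa at 1.34 ± 0.22. Of 10 lipid-associated macrophage genes 4 were higher, Mmp12, Gpnmb, Lgals3 and Lpl. Mmp12, a macrophage elastase, was below the array median in all NC mice (1.00 to 4.63) and read 134, 45.2, 18.7, 17.7 and 28.0 in CL+CX, at least 2.85-fold higher (adjusted p = 0.00462). Gpnmb, a glycoprotein of lipid-laden macrophages, read 8.04, 18.0, 13.1, 16.1 and 5.25 in NC and 380.3, 157, 39.6, 61.2 and 27.5 in CL+CX, without overlap and with replicate 1 highest (2.92 ± 0.76, adjusted p = 0.0445, lost in 9 of the 15 fits with 1 mouse left out, with an adjusted p of up to 0.114 without CL+CX replicate 1). The call of Mmp12 was lost when 16 was added to each signal instead of the floor, and that of Gpnmb was lost with the actin covariate as well. Lgals3, galectin 3, read 42.0 to 57.0 in NC and 88.8 to 518 in CL+CX (2.03 ± 0.36, adjusted p = 0.00421). The call of Gpnmb was lost in the methods' test, and that of Gpnmb with a gene's probe sets averaged.

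Other leukocyte lists had members above NC as well, beside 2.25% of all genes called higher and 2.21% lower. Of 9 Fc receptor genes 2 were higher on CL+CX, Fcgr1 and Fcer1g, against 8 on CL, and the number on CL+CX was 4 without CL+CX replicate 3. Of 11 MS4A and leukocyte tetraspanin genes 6 were higher, among them Cd52 (1.52 ± 0.27, adjusted p = 0.00479). Of 5 NADPH oxidase subunits 3 were higher, including Cybb, the catalytic subunit of phagocytes (40.1 to 111 in NC and 119 to 245 in CL+CX, 1.27 ± 0.24, adjusted p = 0.00687). Of 14 Toll-like receptor genes 3 were higher, Tlr1, Tlr2 and Ly86, and of 15 adhesion molecules 4 were higher, including the leukocyte integrin Itgb2 (1.51 ± 0.29, adjusted p = 0.00777) and Cd44 (1.19 ± 0.22, adjusted p = 0.00594), and 1 lower. Of 22 chemokines and receptors 6 were higher and 1 lower, and the number higher was 2 without NC replicate 1 or 5 or CL+CX replicate 1 or 2 and 3 without NC replicate 2 or CL replicate 1 or CL+CX replicate 4 or 5. Of 16 cell death and inflammasome genes 6 were higher and none lower, with medians of 0.65 on CL+CX and 0.72 on CL. The count was 3 without CL+CX replicate 1 or 5. They included Pycard, the inflammasome adaptor (10.2 to 21.9 in NC and 24.5 to 43.5 in CL+CX, 1.12 ± 0.23, adjusted p = 0.0102), and Bid, which links death receptors to mitochondria (66.9 to 76.2 and 91.5 to 130.1, 0.68 ± 0.12, adjusted p = 0.00438). The call of Pycard was lost with the actin covariate. The calls of Cd44, Pycard and Bid were lost with a gene's probe sets averaged.

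Some markers of the sinusoidal endothelium were lower on CL+CX than in NC, beside 2.21% of all genes called lower. Of 10 measured, 3 were called lower, Lyve1, Bmp2 and Oit3, of which Oit3 was newly changed and the other 2 were undecided. All 10 lay below 0, and the median was -0.47 on CL+CX and 0.10 on CL, where limma called none (1 at an unadjusted p under 0.05). Their summed signal was 1400 to 1730 in NC, 788 to 1610 in CL+CX and 1510 to 1980 in CL. Lyve1, the hyaluronan receptor of these cells, read 128, 116, 82.5, 103 and 96.5 in NC, 114, 73.1, 79.5, 80.5 and 101 in CL and 102, 22.4, 27.6, 42.6 and 34.8 in CL+CX. CL+CX replicate 1 lay at the NC level and the other 4 lay below every NC and CL mouse (-1.41 ± 0.29, adjusted p = 0.013). Bmp2, the endothelial signal for hepcidin, read 167, 191, 146, 173 and 157 in NC and 111, 121, 52.5, 75.4 and 103 in CL+CX without overlap (-0.91 ± 0.21, adjusted p = 0.0251, lost in 6 of the 15 fits with 1 mouse left out, with an adjusted p of up to 0.0676 without NC replicate 2). Stab2, a scavenger receptor, ranged from 109.7 to 229 in CL+CX and from 146 to 202 in NC (-0.23 ± 0.19, adjusted p = 0.626). All 3 calls were lost with the signals as deposited, with the actin covariate and in the methods' test, and the number was 1 without NC replicate 1, 2 or 5 or CL+CX replicate 3 or 4.

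**Figure D4:**
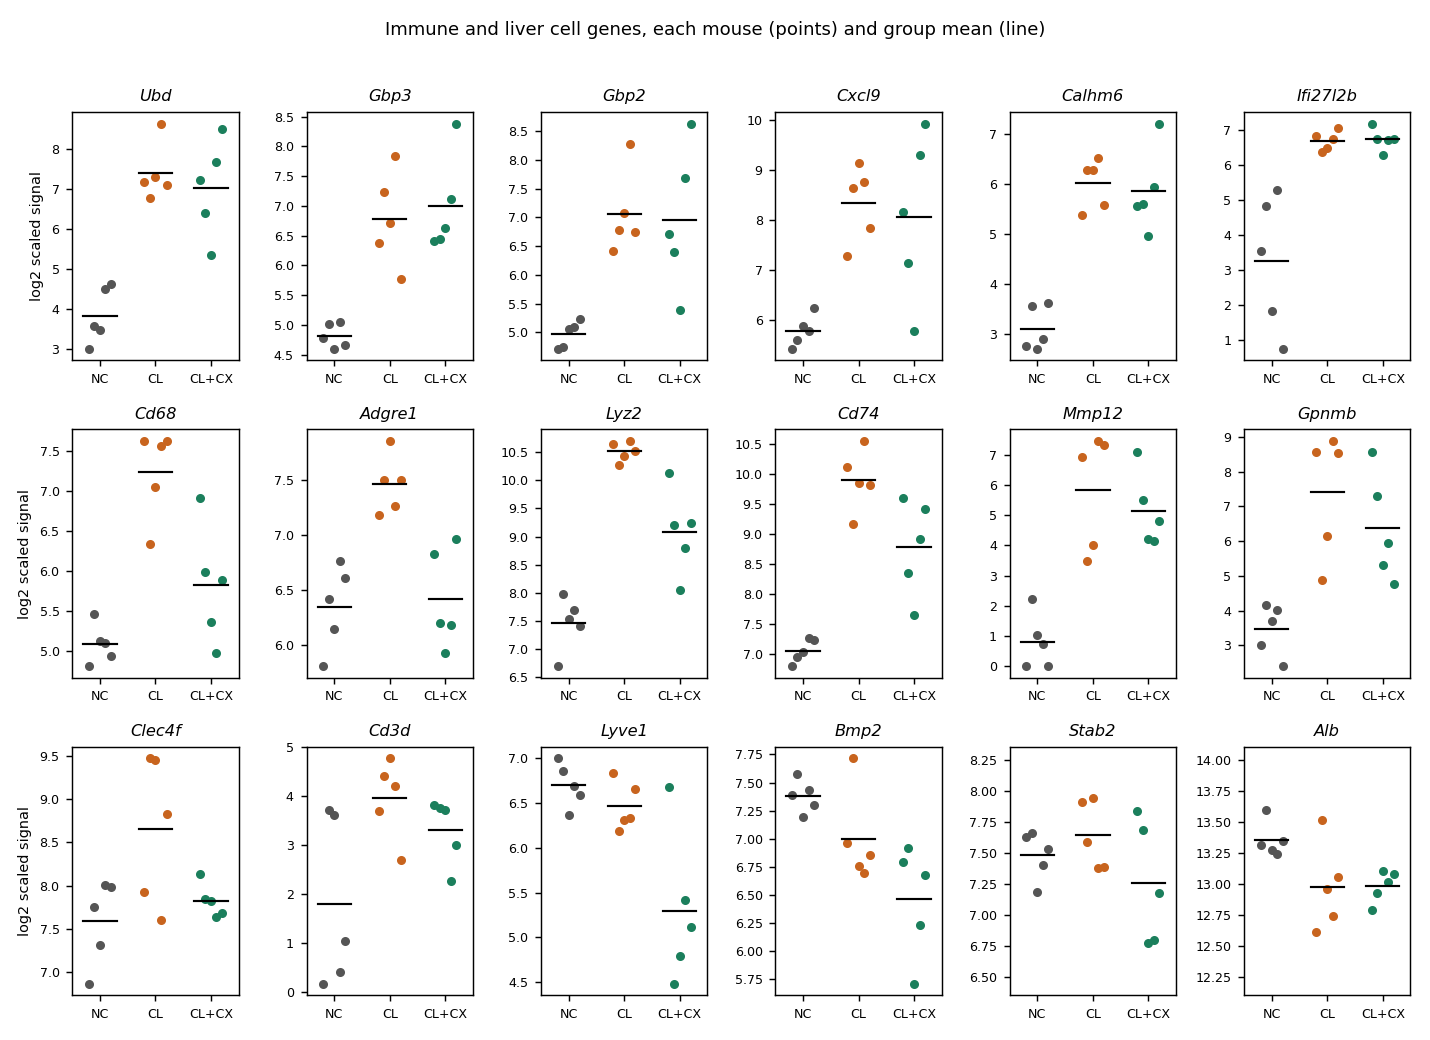
Log2 scaled signal of 18 immune and liver cell genes in every mouse, by diet, with the group mean as a line and its own vertical scale in each panel. Interferon-induced genes such as Ubd and Gbp3 overlap between CL and CL+CX and lie above NC, Adgre1 and Clec4f of CL+CX overlap NC, and Lyve1 is lowest in 4 of the 5 CL+CX mice.

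Collagen chains and stellate cell markers had no member called against NC among 14 in each list (medians 0.03 and 0.13 on CL+CX, 0.53 and 0.58 on CL). Heat shock proteins, at a median of -0.32, had none of 12 called. With either filter on dim probe sets 1 heat shock protein was called lower, and in a fit of only the 2 groups 1 collagen chain was called higher. Of these 40 genes 5 had an unadjusted p under 0.05, and the methods' test called 0. Of 14 erythroid, adipocyte and pancreatic acinar markers limma and the methods' test called 0, and 1 had an unadjusted p under 0.05. Of 6 bile duct markers 4 lay below 0, and the median was -0.41 on CL+CX and 0.71 on CL. Of the 6, 1 was called, higher, against 2.25% of all genes. It was Krt23, a keratin, at 24.2, 11.8, 19.3, 26.5 and 33.0 in NC and 116, 91.8, 182, 148 and 107 in CL+CX. The groups were far apart, and Krt23 was 5.78-fold above NC (2.53 ± 0.25, adjusted p = 7.9e-05), near the CL difference of 2.11.

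Retinoid and carotenoid genes were called in both directions. Of 27 measured, 1 was higher and 3 were lower on CL+CX, against 2.25% and 2.21% of all genes. In either direction 14.8% were called, against 4.46% of all genes, and the median was 0.11. The number lower was 1 without CL+CX replicate 3 and 5 without CL replicate 2. Bco1, which cleaves provitamin A carotenoids, read 36.6, 39.5, 39.6, 36.9 and 44.2 in NC and 62.9, 41.7, 48.2, 28.4 and 39.8 in CL+CX, and Bco2, which cleaves xanthophylls in mitochondria, 111, 155, 149, 101 and 124 and 121, 140.4, 182, 139 and 138. Both groups overlapped in both genes (0.12 ± 0.18 and 0.18 ± 0.17). Cyp26a1, the retinoic acid hydroxylase that retinoic acid induces, was lower, at 91.0, 111, 234, 70.8 and 128 in NC and 41.6, 57.5, 32.2, 56.5 and 41.7 in CL+CX (-1.38 ± 0.31, adjusted p = 0.0208), and lower still on CL (-1.92). Its call was lost in 3 of the 15 fits with 1 mouse left out, with an adjusted p of up to 0.0567 without CL+CX replicate 3. Rdh11, a retinal reductase, was at -0.99 ± 0.15 (adjusted p = 0.00183). Scarb1, the HDL and carotenoid uptake receptor, was the 1 that rose, with signals of 469 to 672 in NC and 694 to 976 in CL+CX and no overlap (0.65 ± 0.12, adjusted p = 0.00628). With the signals as deposited the calls of Cyp26a1 and Rdh11 were lost. Rarb, a retinoic acid target, was at -0.77 ± 0.27 (adjusted p = 0.146). The calls of Cyp26a1 and Scarb1 were lost in the methods' test.

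Several stress and amino acid genes stayed low. The list counts given with them stand beside 2.25% of all genes called higher and 2.21% lower. Asns, asparagine synthetase, read 152, 285, 69.5, 364 and 73.7 in NC, 9.94, 63.9, 2.21, 30.2 and 9.49 in CL and 25.9, 15.1, 1.73, 9.49 and 14.9 in CL+CX. All CL+CX mice were below all NC mice, and Asns was at -3.94 ± 0.81 (adjusted p = 0.0119), with 3 of 5 CL+CX mice above the array median and no fold given. Of 17 ATF4 and ER stress genes 2 were lower, Asns and Atf5 (-0.58 ± 0.11, adjusted p = 0.00832), and 1 was higher, Chac1. The metallothionein Mt1 read 1654, 5433, 2084, 4528 and 1493 in NC and 777, 571, 216, 820.0 and 787 in CL+CX. No CL+CX mouse reached the NC mice, replicate 3 was lowest, and Mt1 was 4.6-fold lower (-2.20 ± 0.39, adjusted p = 0.00448), with Mt2 at -2.40 ± 0.52 (adjusted p = 0.017, lost without NC replicate 2, at 0.0501). Of 19 NRF2 targets 3 were higher, Gstm3, Nqo1 and Gstm2, and none lower, and all 3 calls were lost with the actin covariate. The number was 0 without NC replicate 1, 2 or 5 or CL+CX replicate 1 or 2 and 5 without CL replicate 2. Outside that list, Gsta4, a glutathione transferase for lipid aldehydes, rose. Its signals were 162 to 525 in NC and 600.2 to 1017 in CL+CX (1.28 ± 0.24, adjusted p = 0.00629). Of 17 genes of the urea cycle and amino acid breakdown 3 were lower, a number that was 1 without NC replicate 1, 2 or 3 or CL+CX replicate 1, 2, 4 or 5 and 6 without CL replicate 2. Tat, tyrosine aminotransferase, fell, with signals of 3790.3 to 5499 in NC and 1326 to 1879.6 in CL+CX (-1.52 ± 0.24, adjusted p = 0.00249). With the actin covariate the calls of Asns, Mt2 and Gsta4 were lost, and with the signals as deposited that of Atf5. The calls of Asns, Mt1, Mt2 and Gsta4 were lost in the methods' test.

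Sex-biased liver genes moved in both directions, beside 2.25% of all genes called higher and 2.21% lower. Of 12 male-biased genes 3 were lower, among them Ugt2b38, a glucuronosyltransferase, at 265, 212, 118, 245 and 147 in NC and 29.3, 19.1, 26.0, 46.9 and 31.3 in CL+CX. The groups were far apart (6.46-fold lower, -2.69 ± 0.40, adjusted p = 0.00155). Elovl3, a fatty acid elongase, read 2351 to 3356 in NC and 993 to 1422 in CL+CX (-1.20 ± 0.22, adjusted p = 0.00596), with CL mice at 1501 to 4323. Of 11 female-biased genes Cyp2b9, a P450, rose, with signals of 7.5 to 22.4 in NC and 38.0 to 58.1 in CL+CX (2.06 ± 0.41, adjusted p = 0.00985) and 2 were lower, including the steroid hydroxylase Cyp17a1 (-1.73 ± 0.30, adjusted p = 0.0036). Cyp2b9 was the only 1 of 22 xenobiotic P450 genes and their receptors called, a share of 4.55%, near the 4.46% of all genes. Its call was lost with the actin covariate. The call of Cyp17a1 was lost in the methods' test.

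The remaining genes with the largest differences were mixed in kind, and all but Steap4 were picked only from genes without overlap. Rgs16, a regulator of G protein signalling, read 83.0, 154, 45.0, 39.9 and 95.5 in NC, 89.8, 231, 127, 374 and 547 in CL and 444, 491, 451, 912 and 614 in CL+CX. Every CL+CX mouse was above every NC mouse (7.58-fold, 2.92 ± 0.44, adjusted p = 0.00153). Il1r1, the interleukin 1 receptor, rose by 2.95 ± 0.52 (adjusted p = 0.00423), at 7.29 to 102 in NC and 159 to 278 in CL+CX. Ly6d, a GPI-anchored surface protein, rose 7.04-fold (2.82 ± 0.34, adjusted p = 0.000398), and Maff, a small MAF factor, rose by 2.95 ± 0.62 (adjusted p = 0.0135), with 1 of 5 NC mice above the array median. P2ry6, a nucleotide receptor, was at least 2.31-fold higher (adjusted p = 0.00233). Of the 2 probe sets of Il1r1 1 was called. Steap4, a metalloreductase, rose, with signals of 104 to 155 in NC and 274 to 726 in CL+CX (1.59 ± 0.28, adjusted p = 0.00417). Among the falls, Serpinb1a, an inhibitor of neutrophil proteases, read 197, 245, 319, 181 and 268 in NC and 32.5, 35.3, 77.1, 35.4 and 56.0 in CL+CX (5.32-fold, -2.41 ± 0.31, adjusted p = 0.000529). Slc13a2, a citrate and dicarboxylate carrier, was below the array median in all CL+CX mice and at least 2.21-fold lower (adjusted p = 0.00236), Fam89a was at -1.97 ± 0.25 (adjusted p = 0.00052), and Susd4, a complement regulator, at -1.78 ± 0.33 (adjusted p = 0.00571). The call of Susd4 was lost with the actin covariate. All of these but Maff were also called on the plain CL diet in the same direction. Of 19 acute phase proteins 3 were higher, against 2.25% of all genes. That count was 0 without NC replicate 1 or 5 or CL+CX replicate 5. It was 1 without NC replicate 2 or 3 or CL+CX replicate 1 or 4. Of 22 complement and coagulation genes 3 were lower, against 2.21% of all genes. Their count was 1 without NC replicate 1, 2 or 4 or CL+CX replicate 1, 2 or 4 and 5 without CL replicate 2. In the 58 lists together, 151 of 722 measured genes were called (20.9%, against 4.46% of all genes), 95 higher and 56 lower. The lists had been drawn up with earlier results of these data known, so this share is a description of the lists. The calls of Il1r1, Maff and Steap4 were lost in the methods' test, and that of Il1r1 with a gene's probe sets averaged.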

How the data were processed

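The authors hybridised liver RNA of each mouse to 1 Affymetrix mouse GeneChip array and deposited 1 MAS5 signal intensity per probe set on a linear scale. The 75th percentiles of the deposited intensities ranged from 41.5 to 79.0 between arrays, and all arrays were brought to 1 value of the 75th percentile, 54.7, signals below 1 were set to 1, and log2 was taken without a filter. Control probe sets (64) were left out. R 4.3.3 and limma 3.58.1 fitted 3 group means to all 15 arrays, with an intensity trend, two-sided tests and Benjamini-Hochberg adjustment over 45037 probe sets. In simulated data with these spreads and normal noise, 71 of 100 probe sets changed 2-fold and 89 of 100 changed 4-fold were recovered, with 13 false calls. The changed probe sets were drawn only from those with a mean signal at or above the median, so recovery of dimmer ones was not measured. The number of arrays limits the precision. "Not above the array median" was used as the bound for dim signals, since detection calls were not used here. A fold against such a group is the brighter group's mean against the higher of the array median and the gene's own value. The rule for naming took the 15 largest rises and 15 largest falls among called genes without overlap and the 10 largest newly changed genes. It also took the largest members of 58 lists and all clock, retinoid and marker genes. It gave 273 distinct genes, of which only a further choice is described above, and a few others were named after their values were seen. The members and lists were chosen with earlier results of these data known. The alternatives were scaling, floor, filters, prior, test, samples fitted, replicate block, an actin covariate, the mean of a gene's probe sets and leaving out each mouse. Replicate numbers did not pair the mice, as deviations of same-numbered NC and CL+CX mice correlated at -0.0194 to 0.0354.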

Additional observations from a re-analysis of the deposited data

Results flagged for a closer look

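Among 232 groups of 5 mice, NC and CL+CX for each of 116 genes named above, 12 (5.17%) held a mouse whose signal stood further from the nearest other than Dixon's limit allows, and chance gives about 1 in 20. In CL+CX, Arntl of replicate 4 was lowest at 16.6 (nearest 34.4), Hlf of replicate 5 lowest at 134 (173), Atp8b1 of replicate 1 lowest at 171 (199), Cyp2b9 of replicate 1 lowest at 38.0 (53.4) and Mt1 of replicate 3 lowest at 216 (571). Also in CL+CX, replicate 5 was highest for Pycard at 43.5 (28.5) and for 1700088E04Rik at 10 (2.58). In NC, replicate 3 was highest for 1700088E04Rik at 17.0 (8.61) and for Tm7sf2 at 675 (416). Albumin was highest in NC replicate 2 at 12400 (10400), where Fam89a was lowest at 113 (139), and Apoc2 was lowest in NC replicate 5 at 1820 (2120).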

How the results depend on the processing

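The counts of probe sets called between CL+CX and NC, of those that stayed changed, of those newly changed and of listed genes called were 1485, 705, 106 and 151. With only probe sets at or above the array median in all mice of a group they were 2282, 1109, 256 and 191. That filter admits a probe set through any group where its signal is high, so its larger counts are only a description. With a filter on the mean of all arrays 232 probe sets were newly changed. Signals as deposited gave 20 newly changed. Limma without a trend gave 602, 277, 20 and 88. The methods' test gave 813 probe sets and 99 listed genes, and a fit of only the 2 groups gave 2568 probe sets and 20 newly changed. The actin covariate gave 493, 257, 1 and 81. With the replicate number as a block they were 1302, 608, 89 and 143, and the numbers share no pairing in the labels. Leaving out 1 mouse gave 828 to 2456, 397 to 1289, 27 to 197 and 99 to 185, lowest without NC replicate 1 for all but the newly changed, which were lowest without CL+CX replicate 3, and highest without CL replicate 2 or, for the newly changed, CL replicate 5. Quantile normalization, an offset of 16 and a robust prior moved none of the 4 counts by over 1.5 times. Of 95 named genes called, 80 kept their call with any 1 mouse left out and none changed direction in any setting. Calls were lost for 34 of the 95 in the methods' test, 31 with the actin covariate, 18 with a gene's probe sets averaged, 17 without a trend (Bmp2, Ciart, Cxcl9, Cyp26a1, Cyp7b1, Fasn, Gbp2, Gpnmb, Gpr146, Lyve1, Msmo1, Mt2, Nr1d1, Per2, Per3, Tef and 1700088E04Rik), 13 with the signals as deposited and 5 with the replicate block (Ciart, Fasn, Gpnmb, Per3 and 1700088E04Rik). The cause of these changes was not tested.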
